A study of Homo sapiens with 24 samples.

Results

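The chemokines that draw monocytes and lymphocytes were followed through 24 whole-genome arrays of HEK293, an established human embryonic kidney cell line. All probe sets whose platform annotation names CCL1, CCL2, CCL5, CCL20, CXCL9, CXCL10, CXCL11 or CX3CL1 were taken, which gave 12 probe sets for these 8 genes, out of 54675 probe sets and 19775 named genes on the array. The cells carried a plasmid (pCDNA3) with Flag-tagged SIRT6 mutated at 1 residue (H133W, a deacetylase-dead form), the same plasmid with wild type Flag-tagged SIRT6, the empty pCDNA3 vector, or no DNA. After 24 h of transfection, each kind of cell was given TNFα at 10 ng/ml or its carrier, PBS with BSA, with 3 biological replicates in each of the 8 conditions. The methods put the stimulation of these cells at 4 h, while the text deposited with the arrays gives 1 h. Transfection was transient and reached a fraction of the cells, so that each array averages cells with and without plasmid. Cells that were given no DNA are called untransfected. Fewer expressing cells and less RNA per cell cannot be told apart in such samples.

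Chemokines are small secreted proteins that bind G protein-coupled receptors on leukocytes and set the direction in which these migrate. CCL2 draws monocytes through CCR2, CCL20 draws dendritic cells and Th17 lymphocytes through CCR6, CXCL9, CXCL10 and CXCL11 draw activated T cells and NK cells through CXCR3, CCL1 acts on CCR8, CCL5 on several receptors of the CC family, and CX3CL1 on CX3CR1, partly as a membrane-bound adhesion molecule. TNFα switches on many chemokine genes in tissue cells through the NFκB transcription factors, while CXCL9, CXCL10 and CXCL11 are also classical targets of interferons. SIRT6 is a nuclear NAD-dependent deacetylase, and the arrays asked whether raising it or its inactive mutant alters the response to TNFα.

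Promoters are shown because the change with TNFα passed the test for some of these genes and not for others, and because κB and interferon response motifs are the best known elements of such promoters. RefSeq promoter sequence (build GRCh38.p14, 250 bases before to 50 bases after the start) was matched for 5 of the 8 genes and not for CCL2, CCL5 and CX3CL1. The 250 bases before the start are printed 5′ to 3′ on the strand of the gene. Capitals mark matches to the κB consensus (GGGRNNYYCC, with R a purine, Y a pyrimidine and N any base). They also mark the core of the interferon-stimulated response element (ISRE core, GAAANNGAAA), and each motif was searched on both strands. CXCL10 (chr4:76023498-76023747, minus strand), CXCL11 (chr4:76036071-76036320, minus strand) and CXCL9 (chr4:76007510-76007759, minus strand) lie close together, and CCL20 (chr2:227813592-227813841, plus strand) and CCL1 (chr17:34363234-34363483, minus strand) lie elsewhere.
CXCL10: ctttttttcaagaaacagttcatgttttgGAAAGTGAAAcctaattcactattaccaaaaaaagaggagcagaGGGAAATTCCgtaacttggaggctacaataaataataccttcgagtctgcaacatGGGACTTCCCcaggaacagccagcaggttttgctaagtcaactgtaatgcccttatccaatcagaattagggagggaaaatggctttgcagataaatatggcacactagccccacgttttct
CXCL11: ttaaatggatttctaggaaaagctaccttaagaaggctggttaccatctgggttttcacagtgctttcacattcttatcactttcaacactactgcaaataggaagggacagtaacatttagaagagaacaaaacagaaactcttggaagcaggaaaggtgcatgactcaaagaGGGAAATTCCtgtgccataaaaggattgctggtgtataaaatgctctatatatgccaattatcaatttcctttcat
CXCL9: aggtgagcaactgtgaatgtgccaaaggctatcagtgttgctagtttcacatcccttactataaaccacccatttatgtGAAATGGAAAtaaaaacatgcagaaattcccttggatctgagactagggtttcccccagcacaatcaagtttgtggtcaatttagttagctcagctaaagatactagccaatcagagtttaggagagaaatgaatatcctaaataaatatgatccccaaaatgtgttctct
CCL20: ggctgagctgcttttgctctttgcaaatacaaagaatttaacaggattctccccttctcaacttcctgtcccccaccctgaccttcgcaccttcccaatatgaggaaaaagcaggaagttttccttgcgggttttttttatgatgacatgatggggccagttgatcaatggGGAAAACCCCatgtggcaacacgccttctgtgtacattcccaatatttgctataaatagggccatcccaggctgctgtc
CCL1: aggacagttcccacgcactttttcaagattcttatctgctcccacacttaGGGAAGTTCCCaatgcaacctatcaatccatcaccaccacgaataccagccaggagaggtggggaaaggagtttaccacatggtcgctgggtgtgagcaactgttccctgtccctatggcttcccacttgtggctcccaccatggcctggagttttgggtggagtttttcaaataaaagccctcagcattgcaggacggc

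CXCL10 had 2 separate κB matches, at -177 to -168 and at -122 to -113 from the start, and an ISRE core at -221 to -212. CXCL11 had 1 κB match at -76 to -67, CCL20 had 1 at -79 to -70, where the match is on the strand opposite to the one printed, and CCL1 had 1 stretch of overlapping matches at -200 to -190. CXCL9 had no match to this κB consensus in the window and an ISRE core at -171 to -162. Sites that depart from the consensus were not searched. Thus 4 of the 5 promoters held a κB match and 2 an ISRE core, beside 11.3% and 3.57% of 35116 promoters of the same 300 bases. The AP-1 motif TGANTCA (7.71% of promoters) was found in CXCL11 and the TATA box letters TATAAA (11.5%) in CCL20, CXCL9 and CXCL11, neither motif overlapping a marked match. TATAAA lay at -29 to -24 in CCL20 and at -42 to -37 in CXCL11, but much further from the start in CXCL9, at -191 to -186. A match is a match of letters and was not tested as a binding site. A link between matches and the change with TNFα was not tested either, and CCL2, CCL5 and CX3CL1 had no sequence to compare.

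Values are log2 RMA intensities, and a probe set was taken as raised or lowered at an adjusted p under 0.05 (limma, Benjamini-Hochberg over all 54675 probe sets of a comparison) and a fold change over 1.5. Markers of the line and of other cells were read to check the label. The 8 marker genes of HEK293 cells averaged between 9.06 and 9.35 per array. NEFL, a neurofilament subunit, was at 12.34, while NEFM at 5.11 and PAX2 at 4.99 were below the median of all probe sets (5.34). The 12 leukocyte markers averaged 3.22 to 3.60, with PTPRC (CD45) at 2.74 and CD3E at 2.06, and the 12 fibroblast and endothelial markers 4.09 to 4.49, with COL3A1 at 7.46. Such values also depend on the affinity of each probe, so that no order between the lists is read from them. The paper reports wild type and H133W SIRT6 protein in extracts of these cells, by Western blotting with anti-SIRT6 or anti-Flag. On the arrays SIRT6 was read by 2 probe sets, and the files do not say whether these read the part on the plasmids. In probe set 233179_x_at it averaged 9.64 ± 0.0946 in H133W + TNFα, 9.43 ± 0.16 in SIRT6 + TNFα and 8.84 ± 0.33 in empty vector + TNFα cells (SD, n = 3 each), and neither difference from empty vector passed (limma adjusted p = 0.12 and 0.781). Without TNFα it averaged 9.73 ± 0.15 in H133W, 9.34 ± 0.0295 in SIRT6 and 8.58 ± 0.78 in empty vector cells (SD, n = 3 each). There the difference of H133W, 1.15, passed (limma adjusted p = 0.0357), and that of SIRT6, 0.75, did not (limma adjusted p = 0.749). In probe set 219613_s_at SIRT6 was higher by 0.48 in H133W + TNFα than in empty vector + TNFα cells (limma adjusted p = 0.00733), under the fold threshold, and its other 3 differences from empty vector ran from 0.0686 to 0.15 and did not pass. One array stood apart in its control probe sets. The 3′ control probe set of β-actin exceeded the 5′ one by 3.03 log2 units on H133W + TNFα replicate 3, against 1.33 to 2.05 on the other 23 arrays, and for GAPDH by 0.53 against 0.19 to 0.35, so that the calls that use this array were repeated without it, a choice made after seeing the data.

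TNFα raised 5 of the 8 genes, namely CCL20, CXCL10, CCL2, CXCL11 and CCL1, in every kind of cell, and CCL5, CXCL9 and CX3CL1 in none. Of the 12 probe sets 5 rose in H133W, SIRT6 and empty vector cells and 6 in untransfected cells, and none fell. Among all probe sets, 0.543% rose in H133W cells, 0.503% in SIRT6 cells, 0.583% in empty vector cells and 0.602% in untransfected cells, and 0.572%, 0.342%, 0.276% and 0.174% fell. The median change of the 12 probe sets was 0.27, 0.42, 0.23 and 0.40 in these 4 kinds of cell, each beside a median of all probe sets between -0.02 and 0. For 5 of the 12 the 12 stimulated arrays all lay above the 12 unstimulated ones, beside 0.596% of all probe sets. The 4 comparisons share no arrays.

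CCL2, the monocyte attractant also known as MCP1, had log2 values of 9.14, 8.85 and 8.72 in H133W + TNFα cells, against 5.32, 5.57 and 5.74 in unstimulated H133W cells. In SIRT6 cells they were 8.86, 9.32 and 9.20 with TNFα, against 5.56, 4.95 and 4.86 without. Every stimulated array was far above every unstimulated one, by at least 2.98. Empty vector cells had 9.35, 9.46 and 9.46 with TNFα, against 5.30, 5.58 and 5.38 without. Untransfected cells had 9.40, 9.56 and 9.50 with TNFα, against 4.76, 4.72 and 4.96 without, the lowest unstimulated mean of the 4 kinds of cell, with arrays that overlapped those of SIRT6 cells. The change of CCL2 on the log2 scale was 3.36 in H133W, 4.0 in SIRT6, 4.0 in empty vector and 4.68 in untransfected cells (SE 0.16), or 10.2-, 16.04-, 16.01- and 25.6-fold, with limma adjusted p between 5.35e-14 and 2.13e-11. In H133W cells the change of CCL2 was 3.45 without H133W + TNFα replicate 3, and it passed.

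CCL20, the CCR6 ligand, had the greatest fold change of the 8 genes in each kind of cell. Its log2 values were 10.08, 10.09 and 9.97 in H133W + TNFα cells, against 4.16, 4.57 and 4.17 in unstimulated H133W cells. In SIRT6 cells they were 10.23, 10.50 and 10.49 with TNFα, against 4.43, 3.76 and 4.96 without. The unstimulated SIRT6 arrays were the most scattered, and the lowest stimulated array was still over 5 log2 units above the highest of them. Empty vector cells gave 10.32, 10.40 and 10.43 with TNFα, against 4.51, 3.91 and 4.43 without, and untransfected cells 10.28, 10.37 and 10.22 with TNFα, against 3.93, 4.06 and 3.99 without. CCL20 changed by 5.74 in H133W, 6.02 in SIRT6, 6.10 in empty vector and 6.29 in untransfected cells (log2, SE 0.20), which is 53.6-, 65.1-, 68.5- and 78.4-fold (limma adjusted p between 2.12e-14 and 1.51e-13). CCL20 changed by 5.78 in H133W cells without H133W + TNFα replicate 3, and it passed.

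CXCL10, a CXCR3 ligand, gave 8.70, 8.47 and 7.85 in H133W + TNFα cells, against 3.39, 3.27 and 3.0 in unstimulated H133W cells. In SIRT6 cells CXCL10 had 8.98, 8.88 and 9.04 with TNFα, against 3.31, 3.53 and 3.16 without. The third H133W + TNFα replicate, the array set apart by its control probe sets, was the lowest stimulated one, and no stimulated array overlapped an unstimulated one. In empty vector cells the values were 9.17, 9.01 and 9.14 with TNFα, against 3.33, 3.47 and 2.91 without. In untransfected cells they were 9.14, 9.10 and 9.21 with TNFα, against 3.03, 3.22 and 2.77 without. The change of CXCL10 was 5.12 in H133W, 5.63 in SIRT6, 5.87 in empty vector and 6.14 in untransfected cells (log2, SE 0.18), a 34.8-, 49.6-, 58.5- and 70.8-fold increase (limma adjusted p between 8.23e-15 and 1.21e-13). The change of CXCL10 in H133W cells was 5.37 without that array, and it passed.

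CXCL11, the neighbour of CXCL10 on chromosome 4, was read by 2 probe sets whose mean values over the arrays are below the median of all probe sets. In probe set 210163_at it had 4.38, 3.86 and 4.13 in H133W + TNFα cells against 2.80, 3.01 and 2.96 in H133W cells, and 4.47, 4.76 and 4.22 in SIRT6 + TNFα cells against 2.97, 2.93 and 3.02 in SIRT6 cells. It had 4.27, 3.74 and 4.29 in empty vector + TNFα cells against 3.06, 3.17 and 2.90 in empty vector cells, and 4.12, 4.46 and 3.72 in untransfected + TNFα cells against 3.60, 3.03 and 3.07 in untransfected cells. The closest arrays, one of stimulated and one of unstimulated untransfected cells, were 0.12 apart. The changes of 1.20, 1.51, 1.06 and 0.87 on the log2 scale in H133W, SIRT6, empty vector and untransfected cells (SE 0.19), that is 2.30-, 2.84-, 2.08- and 1.83-fold, all passed (limma adjusted p between 5.5e-05 and 0.0175), as did that in H133W cells without H133W + TNFα replicate 3, at 1.20. The second probe set, 211122_s_at, changed by 0.32, 0.55, 0.35 and 0.75 (SE 0.17) in the same order of cells, and only the change in untransfected cells passed (limma adjusted p = 0.0193). In untransfected cells the calls of both CXCL11 probe sets depended on single arrays: without untransfected + TNFα replicate 2 the changes were 0.69 and 0.62 (limma adjusted p = 0.146 and 0.148), and for each probe set 3 further arrays ended the call when left out.

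CXCL9, the third CXCR3 ligand, lies on the other side of CXCL10 and did not pass in any kind of cell. Its 12 stimulated arrays ran from 2.55 to 2.91 with a median of 2.70, against 2.49 to 3.10 with a median of 2.72 on the 12 unstimulated ones. The 2 sets of arrays overlapped throughout. The largest change of CXCL9 with TNFα, of either sign, was -0.0611, and the 95% intervals of the 4 changes ran from -0.31 to 0.31.

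CCL1, the CCR8 ligand, had a mean value over the arrays likewise below the median of all probe sets, and rose by less than CCL2, CCL20 and CXCL10. It had 4.16, 4.01 and 4.17 in H133W + TNFα cells, against 3.53, 3.34 and 3.47 in H133W cells. SIRT6 + TNFα cells gave 4.44, 4.44 and 4.77, against 3.56, 3.55 and 3.46 in SIRT6 cells. The 3 H133W + TNFα arrays were the lowest of the 12 stimulated ones. CCL1 had 4.53, 4.69 and 4.97 in empty vector + TNFα cells, against 4.0, 3.75 and 3.34 in empty vector cells, and 4.65, 4.68 and 4.68 in untransfected + TNFα cells, against 3.52, 3.95 and 3.32 in untransfected cells. The lowest stimulated array, of H133W cells, and the highest unstimulated one, of empty vector cells, were only 0.0119 apart, while within each kind of cell the groups did not overlap. The log2 change was 0.67 in H133W, 1.03 in SIRT6, 1.04 in empty vector and 1.07 in untransfected cells (SE 0.15), or 1.59-, 2.04-, 2.05- and 2.10-fold (limma adjusted p = 0.0196, 0.000418, 0.000388 and 0.000263). In H133W cells the call was lost without H133W replicate 2, H133W replicate 3 or H133W + TNFα replicate 3 (limma adjusted p = 0.0969, 0.0561 and 0.0598).

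**Figure D1:**
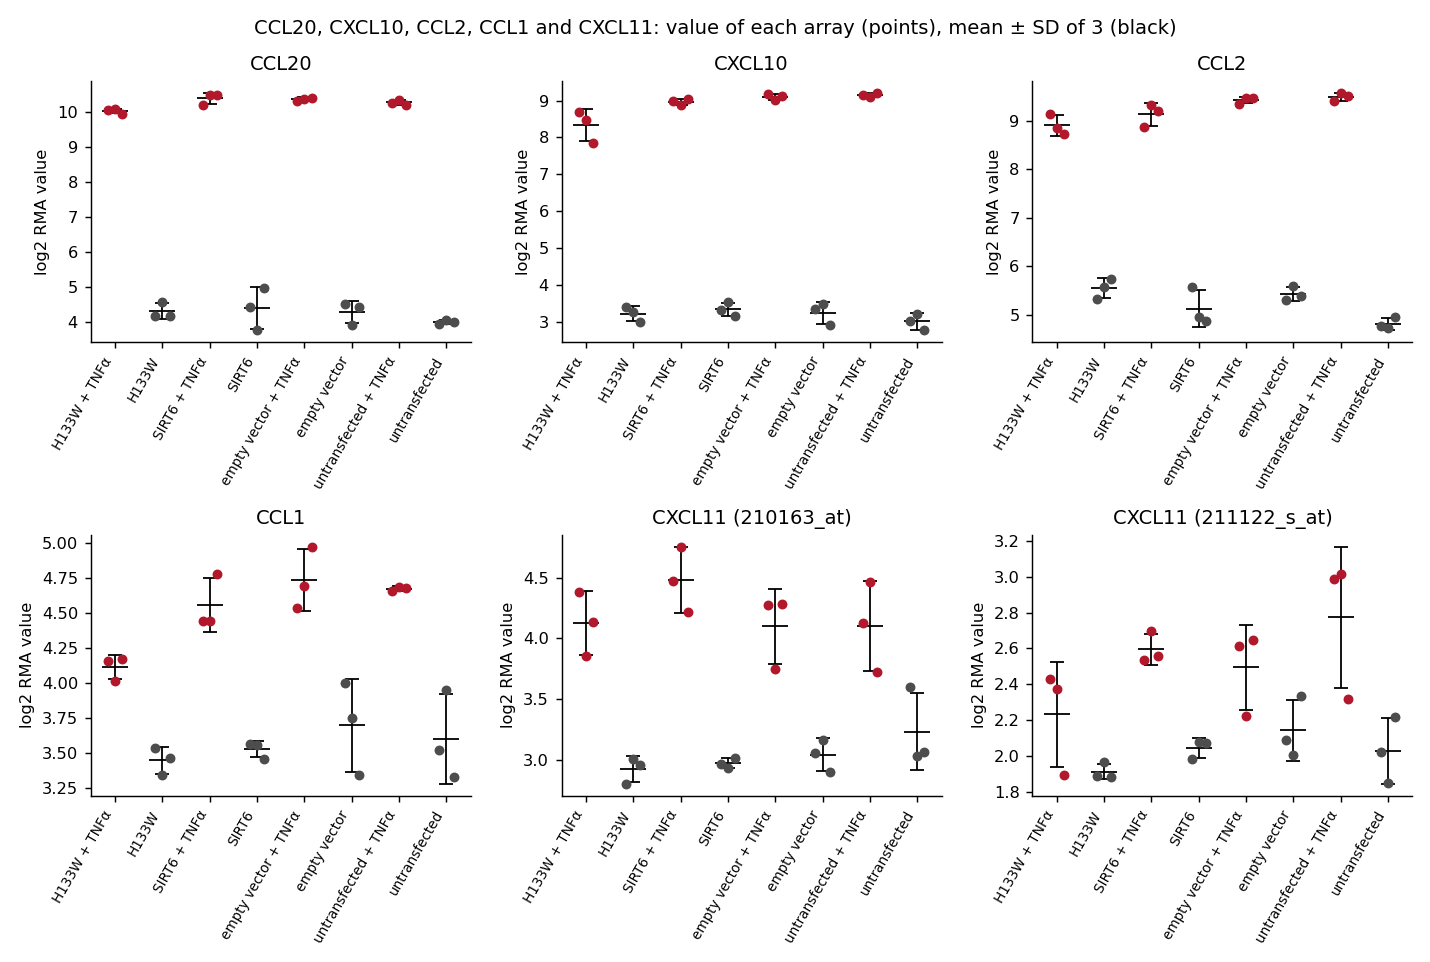
Log2 RMA value of each array for CCL20, CXCL10, CCL2, CCL1 and both CXCL11 probe sets in the 8 conditions, with the mean and SD of 3 replicates in black, stimulated arrays in red and unstimulated ones in grey. Each panel has its own axis, which does not start at 0. The 3 H133W + TNFα arrays lie below the 9 other stimulated ones for CCL20, CXCL10 and CCL1.

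**Figure D2:**
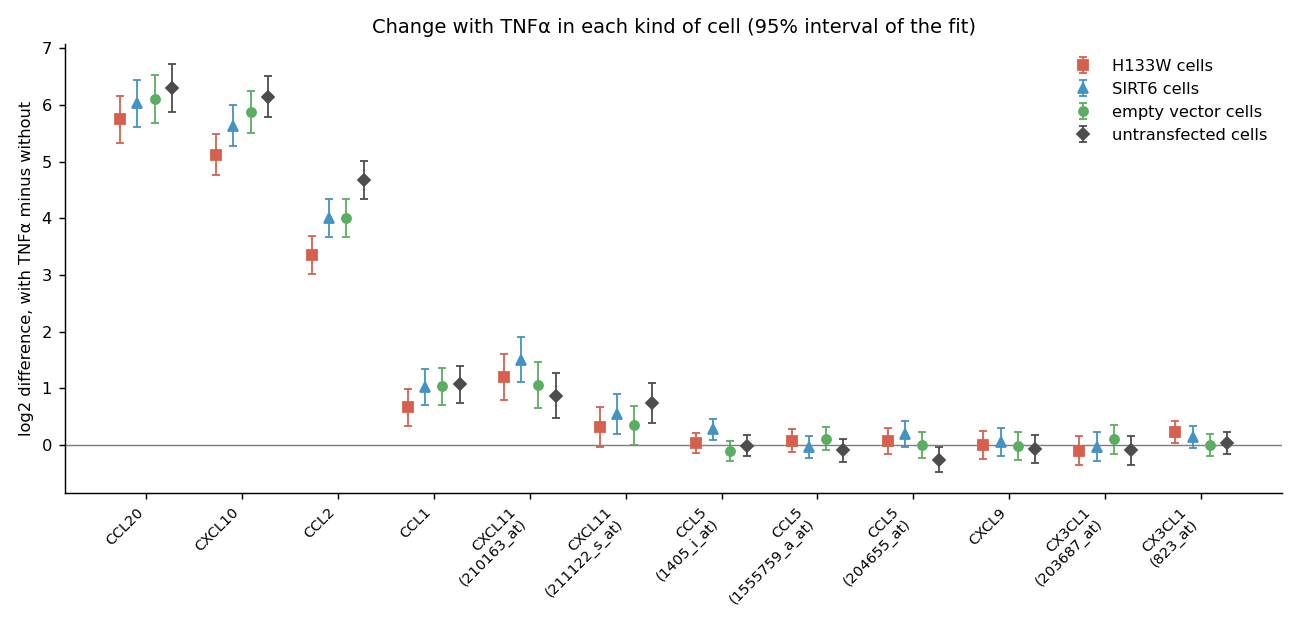
Log2 difference between cells with and without TNFα for the 12 probe sets in H133W, SIRT6, empty vector and untransfected cells (symbols), with the 95% interval of the limma fit. CCL20, CXCL10 and CCL2 changed by 3.36 to 6.29, CCL1 and CXCL11 by less, and the 6 probe sets of CCL5, CXCL9 and CX3CL1 lie around 0.

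CCL5, also called RANTES, which attracts T cells and monocytes, did not pass with TNFα in any of its 3 probe sets. On probe set 204655_at its 12 stimulated arrays ran from 4.23 to 4.51 with a median of 4.34, against 4.13 to 4.85 with a median of 4.32 on the unstimulated ones. On 1555759_a_at they ran from 4.41 to 4.75 with a median of 4.55, against 4.29 to 4.81 with a median of 4.54. Pooled over the 4 kinds of cell, the 2 treatments overlapped in both probe sets. Within a kind, 204655_at did not overlap in untransfected (change -0.25, limma adjusted p = 0.463) or SIRT6 cells (0.20, limma adjusted p = 0.568). Nor did 1555759_a_at in empty vector cells (0.11, limma adjusted p = 0.702). On the third, 1405_i_at, the stimulated arrays had 2.56 to 3.0 with a median of 2.69, against 2.55 to 2.88 with a median of 2.68. In this last probe set the SIRT6 + TNFα arrays, at 3.0, 2.94 and 2.99, stood above the other 21, and CCL5 was 0.28 higher in them than in unstimulated SIRT6 cells, at 2.63, 2.72 and 2.74, but the change did not pass (limma adjusted p = 0.129).

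CX3CL1, or fractalkine, had 3.64 to 3.99 with a median of 3.81 on the 12 stimulated arrays of probe set 203687_at, against 3.51 to 4.13 with a median of 3.86 on the unstimulated ones. On 823_at CX3CL1 had 3.24 to 3.55 with a median of 3.36, against 3.01 to 3.51 with a median of 3.25. Pooled over the kinds of cell, stimulated and unstimulated arrays overlapped in both. Within a kind, 823_at did not overlap in H133W (change 0.23, limma adjusted p = 0.198) or SIRT6 cells (0.15, limma adjusted p = 0.65). Over CCL5, CXCL9 and CX3CL1 together, 24 changes with TNFα ran from -0.25 to 0.28, and their 95% intervals from -0.48 to 0.46, or from 0.718- to 1.38-fold. Changes of this size could therefore go unseen, while a change as large as that of CXCL10 lay outside every interval. In all 12 pairwise comparisons of conditions, 72 tests for these 6 probe sets, none was called by limma (lowest adjusted p = 0.11), and 6 had an unadjusted p under 0.05.

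**Figure D3:**
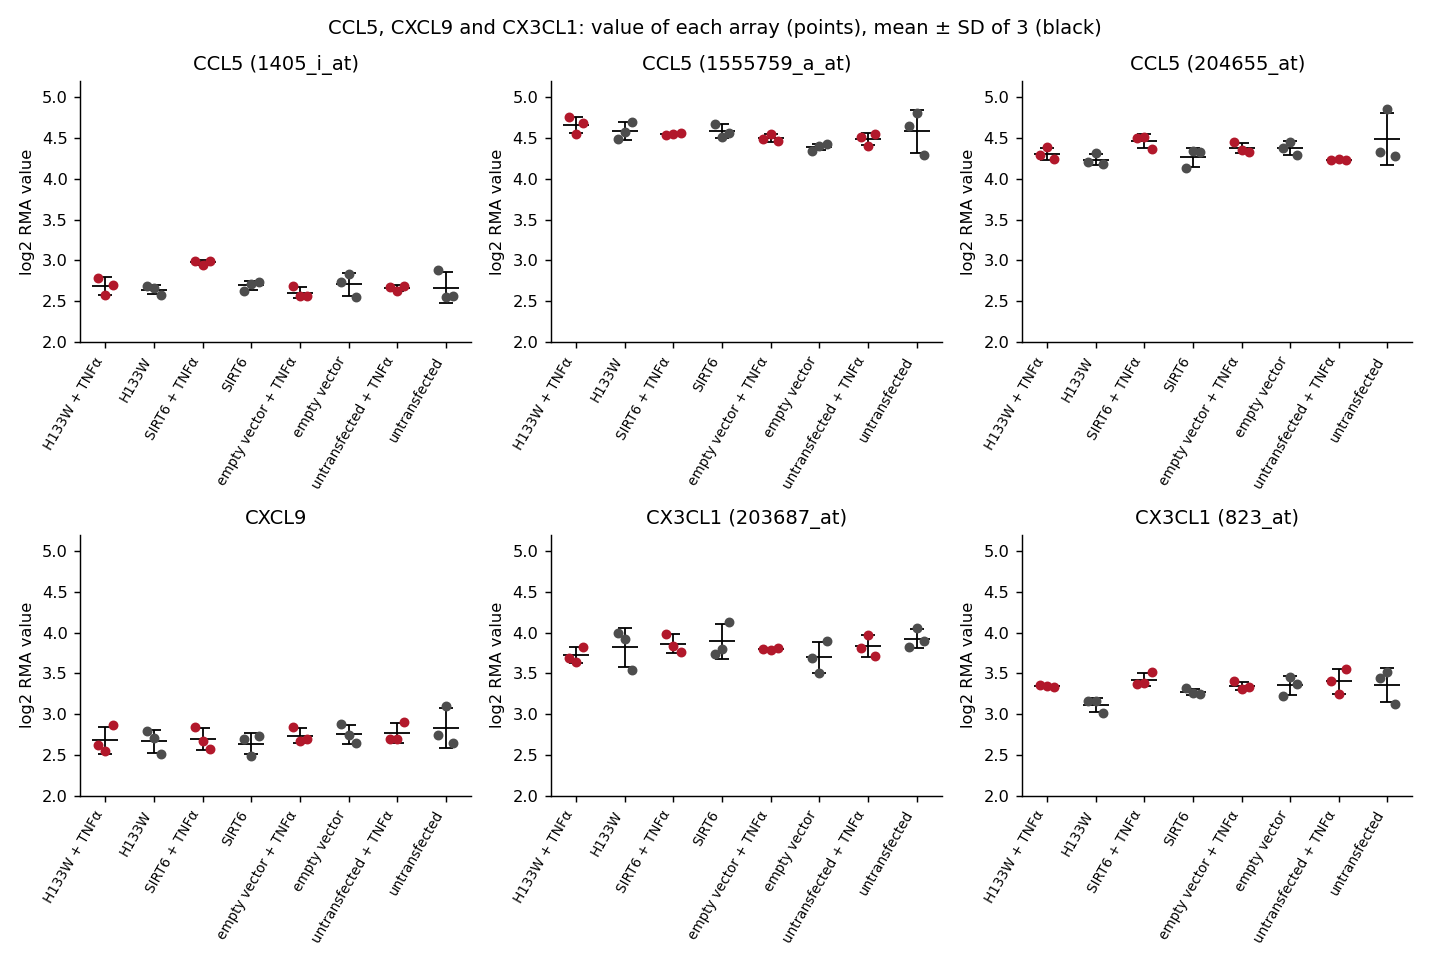
Log2 RMA value of each array for the 6 probe sets of CCL5, CXCL9 and CX3CL1 in the 8 conditions, with the mean and SD of 3 replicates in black, stimulated arrays in red and unstimulated ones in grey. All panels share 1 axis, which does not start at 0, and the pooled ranges of red and grey points overlap in each panel.

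The deacetylase-dead mutant was set against empty vector in stimulated cells to ask whether it changes the response. Among the 12 probe sets 2 were lower in H133W + TNFα than in empty vector + TNFα cells, those of CXCL10 and CCL1, and none was higher. Of all probe sets 0.346% were lower and 1.05% higher. CXCL10 averaged 8.34 ± 0.44 in H133W + TNFα and 9.11 ± 0.0825 in empty vector + TNFα cells (SD, n = 3 each), a difference of -0.77 (SE 0.18, 1.70-fold lower, limma adjusted p = 0.0134). CCL1 averaged 4.11 ± 0.0872 in H133W + TNFα and 4.73 ± 0.22 in empty vector + TNFα cells (SD, n = 3 each), a difference of -0.62 (SE 0.15, 1.54-fold lower, limma adjusted p = 0.0224). CCL2 differed by -0.52 (SE 0.16, limma adjusted p = 0.0615) and CCL20 by -0.34 (SE 0.20, limma adjusted p = 0.366), and neither passed. CXCL11 differed by 0.02 and -0.26 in its 2 probe sets, and CCL5, CXCL9 and CX3CL1 by -0.0809 to 0.16.

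Both calls rested on few arrays. Without H133W + TNFα replicate 3, the array with the uneven β-actin control, the difference of CXCL10 was -0.52 (limma adjusted p = 0.0695) and that of CCL1 was -0.65 (limma adjusted p = 0.0436), so that only CCL1 passed. CXCL10 also missed the threshold without empty vector + TNFα replicate 1 or 3 (limma adjusted p = 0.0581 and 0.052). CCL1 missed it without H133W + TNFα replicate 2, where its fold change fell short (-0.57), or without empty vector + TNFα replicate 2 or 3 (limma adjusted p = 0.0615 and 0.126). Without H133W + TNFα replicate 1, CCL2 passed as well, at -0.64 (limma adjusted p = 0.0246). For CCL20, CXCL10 and CCL1, 3 of the 12 probe sets, the 3 H133W + TNFα arrays were all below the 9 other stimulated arrays, and 4.2% of all probe sets had this order. The order of the stimulated conditions, from high to low mean, ended with H133W for CCL2 also, though its arrays overlapped those of SIRT6 + TNFα cells. Among the other 3 stimulated conditions, neighbours in that order overlapped for CCL20, CXCL10 and CCL1, and for CCL2 only untransfected and empty vector did.

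The response itself, the change with TNFα in H133W cells minus that in empty vector cells, was -0.75 for CXCL10 (95% interval -1.27 to -0.23), -0.65 for CCL2 (-1.11 to -0.18), -0.37 for CCL1 (-0.83 to 0.0844) and -0.35 for CCL20 (-0.95 to 0.24). None of the 12 probe sets was called by limma (lowest adjusted p = 0.567), 2 had an unadjusted p under 0.05, and only 0.00366% of all probe sets were called lower and 0% higher in this test. Without H133W + TNFα replicate 3 the difference in response was -0.50 for CXCL10 and -0.55 for CCL2, and again 0 of 12 were called by limma, those 2 having an unadjusted p of 0.0244 and 0.0282. H133W + TNFα against SIRT6 + TNFα cells gave -0.63 for CXCL10 (SE 0.18, limma adjusted p = 0.0888) and -0.44 for CCL1 (SE 0.15, limma adjusted p = 0.169), with 0 of 12 called by limma, 4 at an unadjusted p under 0.05, and 0.278% of all probe sets higher and 0.0549% lower. When H133W + TNFα replicate 3 was left out, these 2 differences were -0.38 and -0.47 (limma adjusted p = 0.343 and 0.288). The H133W comparisons share the H133W + TNFα arrays. In unstimulated cells 0 of 12 were called by limma between H133W and empty vector (differences from -0.25 to 0.20, 1 at an unadjusted p under 0.05, against 0.702% of all probe sets higher and 0.0677% lower) and 0 of 12 between H133W and SIRT6 (-0.16 to 0.42, 1 at an unadjusted p under 0.05, against 0.106% and 0.0128%).

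Wild type SIRT6 was not called different from empty vector in any of the 12 probe sets. In stimulated cells the differences ran from -0.29 for CCL2 to 0.38 for CXCL11, and their 95% intervals from -0.62 to 0.78. CXCL10 differed by -0.14 (95% interval -0.51 to 0.22), CCL20 by 0.0238 (-0.40 to 0.44) and CCL1 by -0.18 (-0.50 to 0.14). For CXCL10, CCL20 and CCL1 a fold change of 1.5 lay outside the interval. For CCL2 a decrease of 1.5-fold lay inside it (95% interval -0.62 to 0.0375). The CCL2 values of SIRT6 + TNFα arrays were all below those of empty vector + TNFα arrays. For CXCL11 in probe set 210163_at an increase of 1.5-fold lay inside the interval (-0.0187 to 0.78). For CCL5 probe set 1405_i_at the difference of 0.37 had an interval from 0.19 to 0.55 (limma adjusted p = 0.122), the only unadjusted p under 0.05 of the 12. Without TNFα the differences ran from -0.30 to 0.20, with 0 at an unadjusted p under 0.05. Of all probe sets 0.0604% were higher and 0.00914% lower in SIRT6 + TNFα cells, and 0.0348% higher and 0% lower in SIRT6 cells. The change with TNFα differed between SIRT6 and empty vector cells by -0.24 for CXCL10, 0.0023 for CCL2, -0.0744 for CCL20, -0.0082 for CCL1 and 0.45 for CXCL11 in probe set 210163_at (95% interval -0.12 to 1.01). For CCL5 probe set 1405_i_at it differed by 0.38 (95% interval 0.13 to 0.64), the 1 unadjusted p under 0.05, and 0 of 12 were called by limma, as were 0% of all probe sets.

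**Figure D4:**
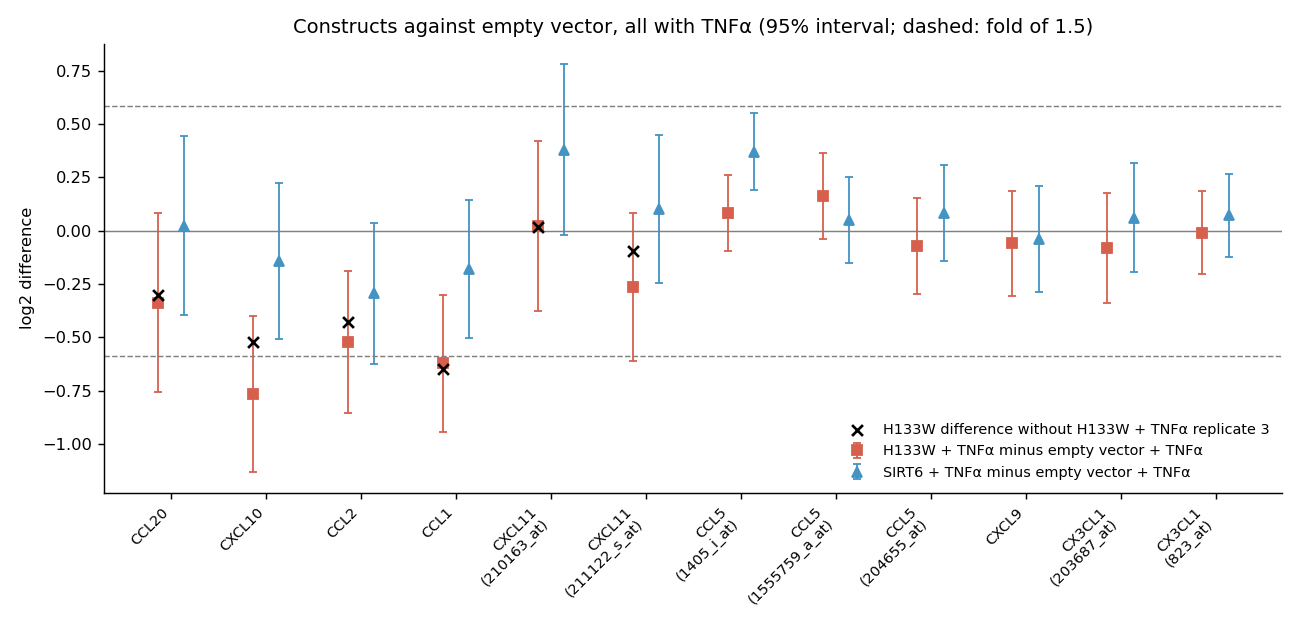
Log2 difference of H133W + TNFα and of SIRT6 + TNFα cells from empty vector + TNFα cells for the 12 probe sets, with the 95% interval of the limma fit. Crosses give the H133W difference when H133W + TNFα replicate 3 is left out, and dashed lines mark a fold change of 1.5. CXCL10 lies at -0.77 with that array and at -0.52 without it.

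The empty plasmid was compared with no DNA, as empty vector against untransfected cells. Whether the cells given no DNA received the transfection reagent is not clear, so an effect of the reagent may lie in both groups. In this comparison 0 of 12 probe sets were called by limma without TNFα (1 at an unadjusted p under 0.05) and 0 of 12 with it (0 at an unadjusted p under 0.05). Among all probe sets, 0.0914% were higher and 0.00183% lower without TNFα, and 0.0329% and 0% with it. The probe set nearest to a call was CCL2 in unstimulated cells, at 5.42 ± 0.14 with empty vector and 4.81 ± 0.13 in untransfected cells (SD, n = 3 each), with no overlap between the arrays and a difference of 0.61 (SE 0.16, limma adjusted p = 0.118). With TNFα the difference of CCL2 was -0.0668. The change of CCL2 with TNFα differed by -0.68 on the log2 scale between empty vector and untransfected cells (SE 0.22) and this difference did not pass.

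Of 34 other chemokine genes 30 were measured, and of these 7 rose with TNFα in H133W, SIRT6 and empty vector cells and 6 in untransfected cells. Among all genes, at 1 probe set per gene, 0.774%, 0.779%, 0.784% and 0.845% rose in these 4 kinds of cell. Most of the 7 are ligands of CXCR2 that draw neutrophils. CXCL1 rose by 5.01, 4.99, 4.84 and 4.96 on the log2 scale in H133W, SIRT6, empty vector and untransfected cells (SE 0.15), CXCL2 by 3.47, 3.69, 4.17 and 3.70 (SE 0.21) and CXCL3 by 3.31, 3.50, 3.39 and 3.46 (SE 0.12). CXCL8, CXCL6 and CCL7 also rose in the 4 kinds of cell, and CXCL5 in all but untransfected cells. In the 8 comparisons between H133W, SIRT6, empty vector and untransfected cells none of the 30 was called by limma, and 32 of 240 tests had an unadjusted p under 0.05. Without H133W + TNFα replicate 3 the 7 genes were again called with TNFα in H133W cells, and CXCL8, which draws neutrophils, passed in H133W + TNFα against empty vector + TNFα cells, at 0.61 (limma adjusted p = 0.0053). Of the receptors that read the 8 ligands, 10 were analysed, and none was called by limma in any of the 12 comparisons between conditions (8 of 120 tests at an unadjusted p under 0.05).

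CCL7, another CCR2 ligand, lies next to CCL2 on chromosome 17 and rose by 0.63, 1.37, 1.29 and 1.19 on the log2 scale in H133W, SIRT6, empty vector and untransfected cells (SE 0.16). CCL11, on the far side of CCL7, changed by 0.0158, -0.0838, -0.0352 and -0.0551 and did not pass. Of the 25 genes that lie within 2 protein-coding genes of a member 22 were measured, and CCL7 was the only one that rose, in each of the 4 kinds of cell. Among all genes 0.774% to 0.845% rose in these kinds of cell. TMEM132E, near CCL1 on chromosome 17, fell by 0.63 on the log2 scale in empty vector cells (SE 0.0773, limma adjusted p = 4.03e-05). In H133W, SIRT6 and untransfected cells its changes of -0.45, -0.54 and -0.46 were under the fold threshold, with limma adjusted p of 0.00153 or lower.

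Among 25 measured genes of the path from the TNF receptor to NFκB (of 28 listed), 7 rose with TNFα in H133W cells and 6 in each of the other 3 kinds of cell. Of all genes, 0.774% rose in H133W, 0.779% in SIRT6, 0.784% in empty vector and 0.845% in untransfected cells. TNFAIP3, the ubiquitin-editing inhibitor A20, rose by 3.27, 3.63, 3.62 and 3.87 on the log2 scale in H133W, SIRT6, empty vector and untransfected cells (SE 0.0904). NFKBIA, the inhibitor IκBα, rose by 1.85, 2.13, 2.34 and 2.48 (SE 0.0724), and RELB, a subunit of NFκB, by 1.86, 2.08, 2.53 and 2.29 (SE 0.20). RELB was also higher in H133W than in empty vector cells without TNFα, by 0.89 (SE 0.20, limma adjusted p = 0.0155), as were 0.804% of all genes. Of 18 measured genes of interferon signalling (of 20 listed) only the transcription factors IRF1 and IRF2 rose, beside the same 0.774% to 0.845% of all genes. IRF1 rose by 1.64, 1.80, 1.93 and 1.83 on the log2 scale (SE 0.0682) and IRF2 by 0.73, 1.01, 0.96 and 0.95 (SE 0.13) in the same order of cells. Neither IFNB1, whose changes ran from -0.0417 to 0.21, nor IFNG, from -0.0969 to 0.087, passed. SOCS3, an inhibitor of cytokine signalling, was higher in H133W + TNFα than in empty vector + TNFα cells by 0.72 (SE 0.11, limma adjusted p = 0.000734), as were 1.44% of all genes. Without H133W + TNFα replicate 3 the difference of SOCS3 was 0.54 (limma adjusted p = 0.00162), under the fold threshold. Without that array 6 of the 7 genes on the NFκB path were again called in H133W cells, TNIP1, a partner of A20, being at 0.43 (limma adjusted p = 0.00837) and under the fold threshold, and both IRF1 and IRF2 were.

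Over the 24 arrays, which share the split by TNFα, the raised members followed one another with Pearson r between 0.822 (CCL1 and CXCL11) and 0.993 (CCL20 and CXCL10). The probe sets of other genes most like CCL20 were those of CXCL1 (r = 0.995), CXCL3 (0.994) and TNFAIP3 (0.993). Those most like CXCL10 were BMP2 (0.995), NFKBIA (0.994) and SDC4 (0.993), and those most like CCL2 were NFKBIA (0.994), SGPP2 (0.992) and IER3 (0.991). CCL1 came closest to MAML2 (0.950), ZC3H12C (0.949) and CILK1 (0.946), and CXCL11 to FIBIN (0.959), EGFL6 (0.935) and IRF1 (0.935). These values describe the arrays and carry no test.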

How the data were processed

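HEK293 cells were profiled on 24 Affymetrix HG-U133 Plus 2.0 arrays, 3 per condition. The authors applied RMA to the intensities in ArrayStudio and deposited the log2 values, between 1.52 and 13.75, which were taken unaltered (0 unmapped columns). Probe sets were named by the platform's gene table and current symbols of RefSeq. Of 54675 probe sets, 42898 were named and 41097 stood for 1 gene.

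A linear model with 1 mean per condition was fitted to all 24 arrays in R 4.3.3 with limma 3.58.1 (16 residual and 3.47 prior degrees of freedom), and 16 comparisons were taken as contrasts. The test was checked on simulated data. With 3 arrays per condition, their number sets the precision. The 8 genes, the lists and the tests were chosen with earlier results of these data known. The text names every member, for each list up to 3 called genes of the largest change, members called in a comparison of constructs, neighbouring genes, and the 3 probe sets most like each raised member. CXCL5, CXCL6, CXCL8, CCL7, CCL11, TMEM132E, TNIP1, IFNB1 and IFNG were named after their values were seen. Alternative settings used unmoderated variances, the compared arrays alone, a variance trend, no dim probe sets, centred or requantiled arrays, no fold threshold, array weights, a replicate block, 1 probe set per gene, and leaving out arrays. Leaving out H133W + TNFα replicate 3 for the genes of the lists was added after seeing the data.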

Additional observations from a re-analysis of the deposited data

How the results depend on the processing

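The counts of called probe sets with TNFα were 5, 5, 5 and 6 of 12 in H133W, SIRT6, empty vector and untransfected cells. They were 3 in each when probe sets below the median intensity were left out, which removes CCL1 and CXCL11 from the test, and 3 in H133W cells from those 6 arrays alone. Leaving out single arrays gave 4 to 5 in H133W and 4 to 6 in untransfected cells. For H133W + TNFα against empty vector + TNFα cells the count of 2 became 0 from the compared arrays alone (CXCL10 adjusted p = 0.315, CCL1 0.188), and 1 without dim probe sets, with array weights or without the 3 arrays of lowest weight (CXCL10 at -0.51 and -0.52 in the last 2, adjusted p = 0.0112 and 0.0324 but under the fold threshold). It ran from 0 to 3 without single arrays. For H133W + TNFα against SIRT6 + TNFα cells it ran from 0 to 1. Every other count of 0 between conditions was 0 under each alternative, the unmoderated linear model included. The causes were not tested.

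Sign changes occurred for CXCL11 alone, in differences that did not pass. Probe set 210163_at in H133W + TNFα against empty vector + TNFα cells was -0.11 without H133W + TNFα replicate 1 and -0.15 without empty vector + TNFα replicate 2, and ran from -0.15 to 0.16 over all such omissions. Its difference in response was -0.0369 without the last of these arrays and ran from -0.0369 to 0.27. The difference in response of 211122_s_at was -0.031, and 0.0199 with centred arrays, 0.18 with array weights, 0.21 without the 3 arrays of lowest weight, and 0.0286, 0.0375, 0.0462 and 0.14 without empty vector + TNFα replicate 1, empty vector replicate 2, empty vector + TNFα replicate 3 or H133W + TNFα replicate 3, and ran from -0.17 to 0.14 without single arrays. Of 594 values of single probe sets under alternatives, 557 kept their direction and side of the threshold, 26 lost the call, 1 gained it and 10 changed sign.

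Same-numbered replicates did not regularly deviate together. Over 36 pairs the correlations of their deviations ran from -0.38 to 0.28. Of these 8 exceeded 0.1, and in 0 of 12 comparisons did all pairs exceed it. The labels do not say whether the numbers pair the samples, and these correlations cannot settle it. With the replicate number as a block the counts were again 5, 5, 5 and 6 with TNFα, 2 for H133W + TNFα against empty vector + TNFα cells and 0 in the other comparisons. Depth has no counterpart in these arrays, and CCL1, CCL5, CXCL9, CXCL11 and CX3CL1 are read near the dim end of the scale.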
